A study of Mus musculus with 9 samples.

Results

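The mitochondrial genome of the mouse is a small circular DNA molecule that encodes 13 mRNAs, 2 ribosomal RNAs and 22 transfer RNAs. Their rows were taken from an expression table of prominin-1-positive kidney cells as all rows whose symbol starts with mt-, which gave 37 of 52405 rows. The libraries came from C57BL/6 mice in 3 groups with 3 libraries each. Group D21-ovx held females ovariectomized at postnatal day 21, group D21-s females given a sham operation at postnatal day 21, and group M sham-operated adult males, whose day of surgery is not in the labels. The labels call the tissue proximal tubule. Kidney cortex was homogenized mechanically and incubated at body temperature, cells that bound an antibody against prominin-1 (a brush border membrane protein) were kept on a magnetic column, and total RNA went into strand-specific libraries. No allele or agent other than the surgery is named in the labels, which call each library a biological replicate, and age at collection is not used here.

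Mitochondrial DNA is transcribed from both strands as long precursors by the polymerase POLRMT together with TFAM. The transfer RNAs sit between most of the coding genes, and their excision releases the mRNAs and rRNAs. The mRNAs encode core subunits of the respiratory chain complexes I, III and IV and of ATP synthase, while all other proteins of mitochondria come from nuclear genes. The proximal tubule, the segment that reclaims most filtered solutes, is rich in mitochondria and depends on them for its ATP.

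All 37 members lie on chromosome M of build GRCm38 in the GENCODE M21 annotation. The 13 mRNA rows and 2 rRNA rows passed the filter on low values, which asked for 1 FPKM or more in 3 or more of the 9 libraries. FPKM is the number of fragments per kilobase of a transcript for every 1e6 fragments mapped. The 22 transfer RNA rows, of 59 to 75 bases, were listed at 0 in every library, so no transfer RNA could be compared. On the light strand lie 9 members, which are mt-Nd6 and 8 transfer RNAs.

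Of the 13 mRNA rows, 7 have a nearly identical partner in the nuclear genome. A search of the annotated nuclear transcripts found 7 unprocessed pseudogenes of at least 99% identity over at least 200 bases, all on the minus strand of 1 stretch of chromosome 1, chr1:24611535-24616197. Gm29216 matches the 3′ part of mt-Co1 (bases 1063 to 1545), Gm28661 matches mt-Co2, Gm10925 matches mt-Atp6, Gm28437 matches mt-Co3, Gm28438 matches mt-Nd3, Gm10222 matches mt-Nd4l, and Gm28439 matches the first 876 of the 1378 bases of mt-Nd4. They follow the order of the mitochondrial genes. The 233 bases between Gm10925 and Gm28661 hold no annotated gene, and for mt-Atp8, mt-Nd1, mt-Cytb, mt-Nd6, mt-Rnr1 and mt-Rnr2 no partner was found among annotated transcripts even at 95% identity. For mt-Atp8, which has 204 bases, a search that asked for 200 could not find a partial match. In the mitochondrial order mt-Atp8 lies between mt-Co2 and mt-Atp6, and whether the 233 bases match it was not tested.

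The start of mt-Atp6 (chrM:7927-7986, plus strand) and of Gm10925 (chr1:24614592-24614651, minus strand), and that of mt-Co3 (chrM:8607-8666, plus strand) and of Gm28437 (chr1:24613912-24613971, minus strand), are shown because these 2 pairs hold the largest nuclear values. Capitals mark the start codon, and within each pair the 60 bases are the same letter for letter.
mt-Atp6: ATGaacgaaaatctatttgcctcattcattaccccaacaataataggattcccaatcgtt
Gm10925: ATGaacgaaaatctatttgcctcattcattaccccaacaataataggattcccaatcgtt
mt-Co3: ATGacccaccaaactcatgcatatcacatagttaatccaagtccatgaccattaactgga
Gm28437: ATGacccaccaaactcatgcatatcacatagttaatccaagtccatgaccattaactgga

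In 2 of the 7 pairs the aligned transcripts differ by 1 base, counted from 1 at the 5′ end of the mitochondrial gene and given as mitochondrial base, position, nuclear base: T3C in mt-Nd3 and Gm28438, and A1066T in mt-Co1 and Gm29216. The alignment of Gm29216 starts at base 10 of its 492, and the bases before that lie outside this count. The windows below, from chrM:9459-9490 and chr1:24613088-24613119 and from chrM:6390-6422 and chr1:24616156-24616188, show the differing base in capitals. Elsewhere within the aligned stretch of a pair, reads from both rows have the same letters, so the split of reads between the 2 rows is an estimate by RSEM and not an observation.
mt-Nd3: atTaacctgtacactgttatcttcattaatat
Gm28438: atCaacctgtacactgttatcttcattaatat
mt-Co1: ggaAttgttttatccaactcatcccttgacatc
Gm29216: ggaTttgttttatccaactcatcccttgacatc

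Mitochondrial rows also overlap each other. The last 43 bases of mt-Atp8 are the first 43 of mt-Atp6 in another reading frame (chrM:7927-7969), shown here with the start codon of mt-Atp6 and the stop codon of mt-Atp8 in capitals. Gm10925 starts with the same 43 bases. The genes mt-Nd4l and mt-Nd4 share 7 bases, and mt-Nd5 and mt-Nd6 share 14 bases on opposite strands.
mt-Atp8 and mt-Atp6: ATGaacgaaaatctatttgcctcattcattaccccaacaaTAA

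The mitochondrial rows made up 24.6% to 27.3% of each library's FPKM sum. Their share was 25.1%, 26.0% and 26.1% in the D21-ovx libraries, 26.2%, 26.6% and 26.3% in the D21-s libraries, and 24.6%, 25.9% and 27.3% in the M libraries. The D21-ovx and D21-s libraries each lay in a narrow band, while the M libraries spread over the range of both. The 13 mRNAs accounted for most of it, with 24.1% ± 0.61 in D21-ovx, 24.7% ± 0.38 in D21-s and 24.7% ± 1.26 in M (SD, n = 3 each). The 2 rRNAs added 1.59% ± 0.094 in D21-ovx, 1.70% ± 0.28 in D21-s and 1.28% ± 0.13 in M.

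The share did not pass a test in any comparison. D21-ovx libraries were 0.68 percentage points below D21-s libraries without overlap, which gave the smallest two-sided p that an exact permutation test of 3 against 3 can reach, 0.1 (0.3 after Benjamini-Hochberg adjustment over the 3 comparisons). Without D21-ovx library 1 the difference was -0.37 points. Between D21-ovx and M the difference was -0.23 points (exact permutation p = 1.0), and its sign turned without D21-ovx library 1 (0.083 points) or M library 3 (0.44 points), while without M library 1 it was -0.88 points. Between D21-s and M the difference was 0.45 points (exact permutation p = 0.7), with -0.20 points without M library 1 and 1.12 points without M library 3. Multiplying each FPKM by the transcript's length estimated that 16.2% to 19.0% of mapped fragments came from these rows. With shortened lengths the estimate was 14.9% to 17.5%, and with a larger shortening 13.6% to 16.0%.

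The 7 nuclear partner rows held a further 9.89% ± 0.33 of the FPKM sum in D21-ovx, 10.2% ± 0.69 in D21-s and 9.55% ± 0.23 in M. Adding them to the mitochondrial rows gave 35.6% ± 0.86 in D21-ovx, 36.6% ± 0.89 in D21-s and 35.5% ± 1.30 in M (SD, n = 3 each). With the partners added the D21-ovx and D21-s libraries overlapped (difference -0.99 points, exact permutation p = 0.4).

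**Figure D1:**
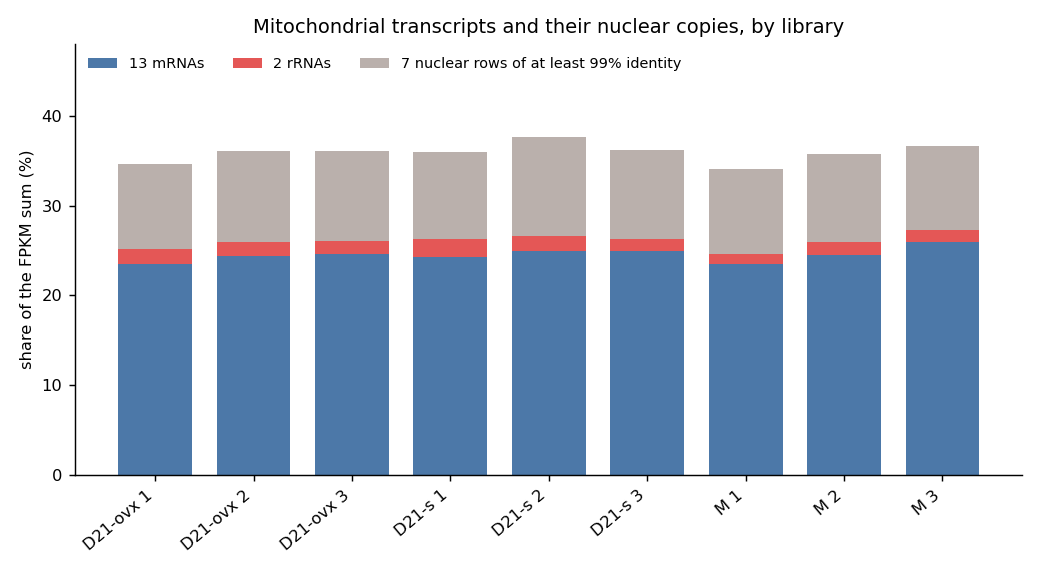
Share of each library's FPKM sum (%, y axis) held by the 13 mitochondrial mRNAs, the 2 mitochondrial rRNAs and the 7 nuclear rows of at least 99% identity, with 1 bar per library. The mitochondrial rows reach 24.6% to 27.3% in every library, and with the nuclear rows 34.1% to 37.6%.

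Summed levels of cell type markers lay apart between female and male libraries for some cell types, and these values stand beside every comparison with males. The FPKM of 14 proximal tubule markers summed to 13974 to 15272 in D21-ovx, 13053 to 14066 in D21-s and 9184 to 10433 in M. The 68 markers of other kidney and blood cell types summed to 2297 to 3391 in D21-ovx, 1926 to 3240 in D21-s and 3457 to 5050 in M, and none of these lists held a marker at 0 in all libraries. Of the 14 proximal tubule markers 6 were higher in D21-ovx than in M and 8 were higher in D21-s than in M, and none was lower. Of the 58 other markers tested, 1 was higher and 6 were lower in D21-ovx than in M, and 1 was higher and 16 were lower in D21-s than in M, beside 11.8% of all genes called for D21-ovx and 9.15% for D21-s (adjusted p under 0.05 in limma). The sums of thick ascending limb, podocyte, stroma and red cell markers overlapped between each female group and M. RNAs retained in the nucleus (5 genes) summed to 210.1 to 247 in D21-ovx, 209 to 265 in D21-s and 252 to 390.3 in M, and 15 immediate early and heat shock genes to 1143 to 1271 in D21-ovx, 756 to 1135 in D21-s and 1168 to 1616 in M. Their part in the results below was not tested beyond a fit with a score of the other cell types as covariate. That score was -0.43 to 0.24 in D21-ovx, -0.82 to 0.06 in D21-s and 0.32 to 0.71 in M. Fits with this covariate against M therefore compare groups that do not overlap in the score, and cannot separate the score from the group. In bulk RNA, more mitochondrial RNA per cell and more cells rich in mitochondrial RNA cannot be told apart.

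Among the mRNA rows as deposited, mt-Co2 and mt-Co1, subunits of complex IV, stood highest and mt-Nd3 lowest. FPKM is a level per length. Averaged over the 9 libraries, mt-Co2 had 31481 FPKM, mt-Co1 28818 and mt-Cytb 21161, followed by mt-Atp8 with 16760, mt-Nd1 with 13428, mt-Nd4 with 12443 and mt-Nd2 with 11889. Below these stood mt-Co3 with 9696, mt-Atp6 with 8207, mt-Nd6 with 6975, mt-Nd5 with 6537, mt-Nd4l with 6518 and mt-Nd3 with 1993. mt-Co2 stood above mt-Co1 in each of the 9 libraries, though their ranges over all libraries overlapped. Among the next neighbours in this order, mt-Nd1 stood above mt-Nd4 in 8 of the 9 libraries and mt-Nd4 above mt-Nd2 in 5, mt-Co3 above mt-Atp6 and mt-Atp6 above mt-Nd6 in 7 each, and mt-Nd5 above mt-Nd4l in 4. All other neighbours kept their order in all 9. The rRNA rows stood at 7708 FPKM for mt-Rnr1 (12S) and 3216 FPKM for mt-Rnr2 (16S). Whether the libraries were made by poly(A) selection or rRNA depletion is not given in the sources used here, and the level of an rRNA row against an mRNA row depends on it.

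**Figure D2:**
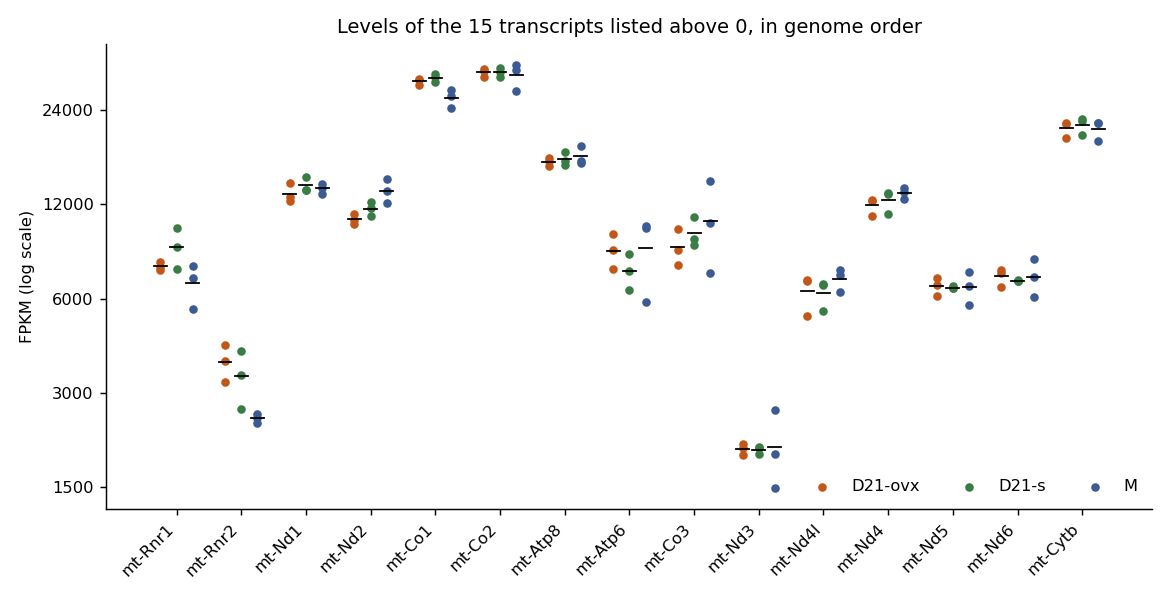
FPKM (y axis, log scale) of the 15 mitochondrial transcripts listed above 0, in genome order, with 1 point per library and a line at each group's mean. The widest spread among the mRNAs is that of mt-Co3, mt-Atp6 and mt-Nd3 in the M libraries.

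The order and the spread changed when a mitochondrial row was summed with its nuclear partner. mt-Atp6, the membrane channel subunit of ATP synthase, had 7433, 9652 and 8551 FPKM in D21-ovx, 7368, 6408 and 8344 in D21-s and 5847, 10057 and 10205 in M. Gm10925 had 30062, 30341 and 31419 FPKM in D21-ovx, 33660, 35493 and 30995 in D21-s and 31752, 30802 and 30725 in M, which is 3.01 to 5.54 times the mitochondrial row. Where mt-Atp6 was lowest within D21-s and within M, Gm10925 was highest. Summing the reads of both rows over the length of mt-Atp6 gave 37363, 39859 and 39831 FPKM in D21-ovx, 40880, 41745 and 39203 in D21-s and 37459, 40723 and 40794 in M. The coefficient of variation within groups was 3.95% for the summed level, against 19.6% for mt-Atp6 alone, and the summed level was the highest of all 15 transcripts.

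mt-Co3, the third core subunit of complex IV, had 8549, 7679 and 9984 FPKM in D21-ovx, 10902, 8929 and 9287 in D21-s and 10439, 7224 and 14269 in M, so 2 M libraries lay at the extremes of all 9. Gm28437 had 20376, 23408 and 21745 FPKM in D21-ovx, 18995, 23166 and 20959 in D21-s and 18869, 22300 and 16253 in M. In every group the library lowest for mt-Co3 was the highest for Gm28437. The summed level was 28899 to 32066 FPKM over the 9 libraries, with a coefficient of variation within groups of 3.77%, against 21.5% for mt-Co3 alone.

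For mt-Nd3, a small subunit of complex I, the mitochondrial row had 1899, 2066 and 2001 FPKM in D21-ovx, 2012, 1999 and 1919 in D21-s and 2635, 1909 and 1494 in M. Its partner Gm28438 took an estimated 64.9% to 81.4% of the reads of the pair (FPKM times full length), and the summed level was 6644 to 8042 FPKM. The coefficient of variation within groups was 4.18% for the sum and 16.8% for mt-Nd3 alone. When summed, mt-Nd3 averaged 7231 FPKM over all libraries and was no longer the lowest mRNA, standing above mt-Nd6 (6975) and mt-Nd5 (6537). Summing took mt-Co3 close to its complex IV partners, with a mean of 30344 FPKM, against 31355 for mt-Co1 and 31486 for mt-Co2 treated in the same way.

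The other pairs split differently. By the same estimate, Gm10222 took 17.4% to 41.1% of the reads of the pair with mt-Nd4l, and Gm28439 took 4.67% to 15.9% with mt-Nd4. Both shares were lowest in M library 1 and highest in M library 3. Gm29216 took an estimated 6.19% to 9.02% with mt-Co1. Gm28661, the full-length partner of mt-Co2 (681 of 684 bases), was listed at 0 in 8 libraries and at 52.05 FPKM in D21-s library 2. Summing did not narrow the spread of mt-Nd4, whose coefficient of variation within groups was 8.58% for the sum and 6.58% alone. More distant partners on chromosome 2, of 95.9% to 97.6% identity, were low, with Gm13341 (mt-Co2) averaging 5.21 FPKM in D21-ovx, 4.97 in D21-s and 5.28 in M, and Gm13340 (mt-Co1) 4.56 FPKM in D21-ovx, 4.63 in D21-s and 4.39 in M.

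**Figure D3:**
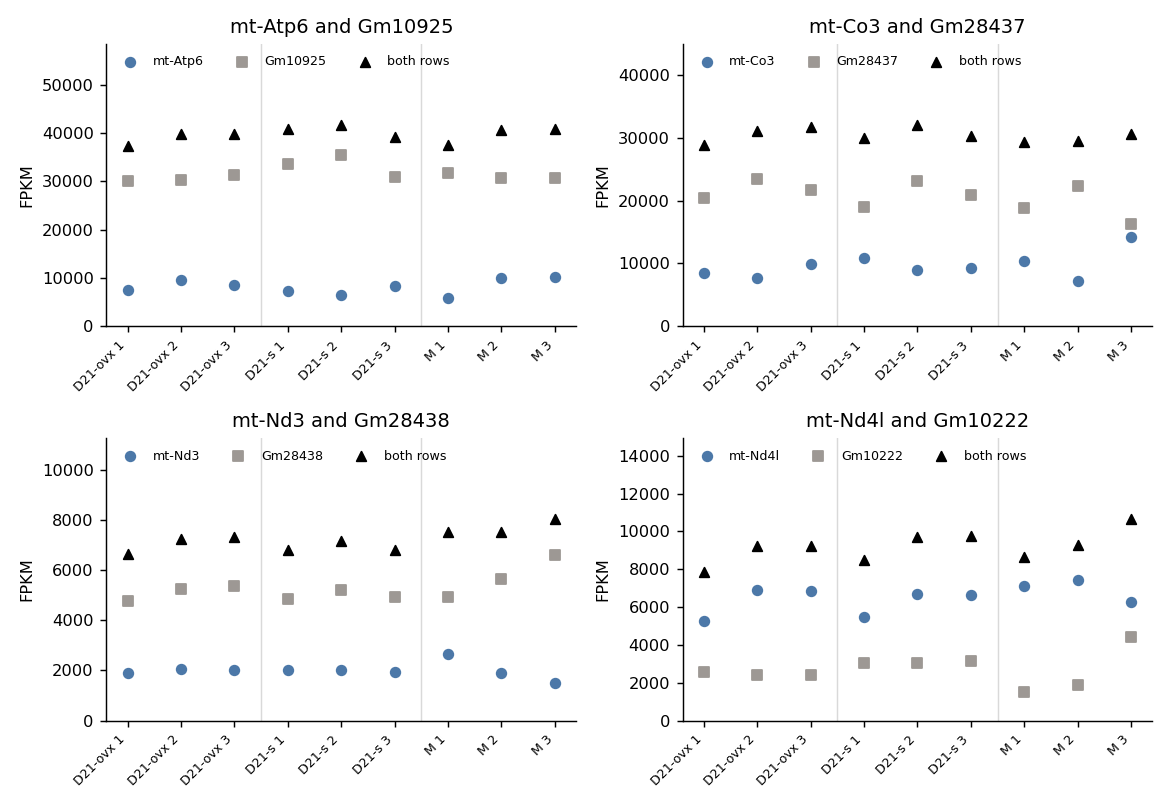
FPKM (y axis) by library (x axis) of 4 mitochondrial mRNAs (circles), of their nuclear partners on chromosome 1 (squares) and of both rows summed over the length of the mitochondrial gene (triangles). The triangles lie between 37363 and 41745 FPKM for mt-Atp6 and between 28899 and 32066 for mt-Co3, a narrower band relative to their level than the circles.

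Between ovariectomized females and males, 2 of the 15 mitochondrial rows tested passed, mt-Rnr2 and mt-Nd2. Rows were called at an adjusted p under 0.05 in limma on log2(FPKM + 1) with Benjamini-Hochberg adjustment over 13160 genes, by which 11.8% of all genes were called in this comparison. mt-Rnr2, the RNA of the large mitochondrial ribosomal subunit, had 4280, 3787 and 3256 FPKM in the D21-ovx libraries, against 2406, 2565 and 2487 in the M libraries. Every D21-ovx library lay above every M library. The log2 fold change was 0.59 (SE 0.15, limma adjusted p = 0.0330), and the D21-s libraries, with 4075, 3418 and 2667 FPKM, also lay above the M libraries.

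mt-Nd2, a membrane subunit of complex I, was lower in ovariectomized females. It had 11182, 10700 and 10405 FPKM in the D21-ovx libraries, against 12141, 13259 and 14407 in the M libraries, with no overlap. The log2 fold change was -0.30 (SE 0.079, limma adjusted p = 0.0406). Over all genes tested, the median change was -0.088 on the log2 scale. Scaling by median ratios brought that median to 0.0078 and left mt-Nd2 at -0.19 (adjusted p = 0.111) and mt-Rnr2 at 0.71 (adjusted p = 0.00950).

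Leaving out single libraries ended both calls in most fits. For mt-Rnr2 the adjusted p was 0.0949 and 0.0995 without D21-ovx library 1 or 2, 0.0508 without D21-s library 2, and 0.0662, 0.0756 and 0.0869 without M library 1, 2 or 3, with log2 fold changes of 0.50 to 0.70 over all 9 such fits. For mt-Nd2 it was 0.0718, 0.121 and 0.138 without D21-ovx library 1, 2 or 3, 0.0508, 0.0511 and 0.0571 without D21-s library 1, 2 or 3, and 0.101 and 0.109 without M library 2 or 3, against 0.0137 without M library 1. With the score of other cell types as covariate, mt-Rnr2 stood at 0.94 (adjusted p = 0.00219) and mt-Nd2 at -0.25 (adjusted p = 0.268). Quantile normalization ended both calls, with log2 fold changes of 0.49 (adjusted p = 0.10) and -0.06 (adjusted p = 0.627), and it sets the value of rows this high by their rank alone. Without the filter on low values both calls were lost too (adjusted p = 0.118 for mt-Rnr2 and 0.440 for mt-Nd2).

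The other 13 tested rows did not pass between D21-ovx and M. The smallest p among them was that of mt-Co1, the catalytic subunit of complex IV, with 28931, 29857 and 30118 FPKM in D21-ovx, against 24378, 26691 and 27900 in M (log2 fold change 0.17, SE 0.072, limma adjusted p = 0.150). Its libraries did not overlap either, and under median-ratio scaling it passed (0.28, adjusted p = 0.0318). At an unadjusted p under 0.05 stood 3 of the 15 rows, against 28.6% of all genes. Libraries of 4 rows (26.7%) did not overlap, which were mt-Rnr2, mt-Co1, mt-Nd2 and mt-Nd4, against 34.1% of all genes tested. The log2 fold changes of the 13 mRNAs ran from -0.30 to 0.17 with a median of 0.01.

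**Figure D4:**
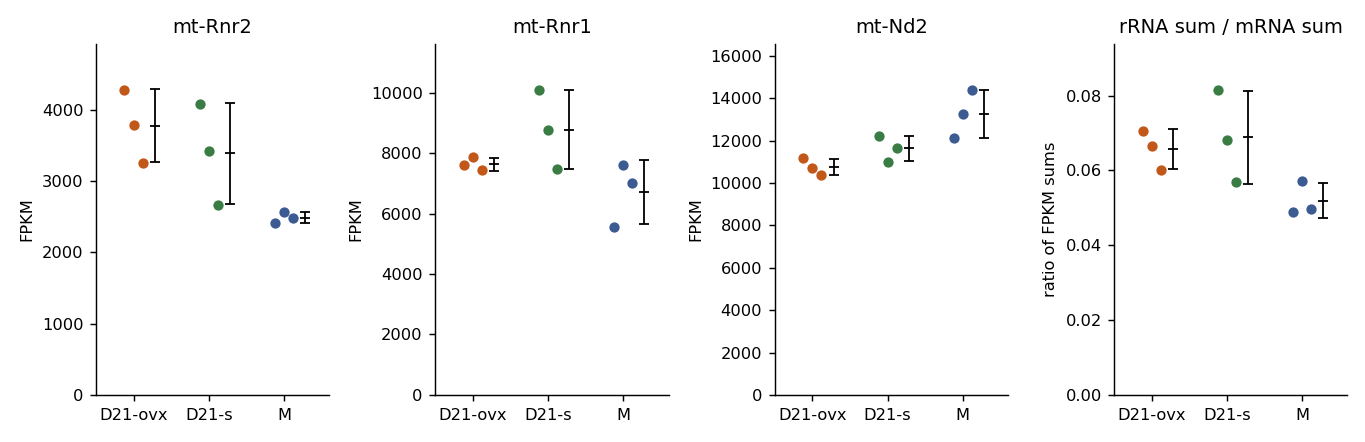
Levels of mt-Rnr2, mt-Rnr1 and mt-Nd2 (FPKM) and the ratio of the summed rRNA to the summed mRNA FPKM, with 1 point per library and bars for the mean and SD of each group (n = 3). The D21-ovx libraries lie above the M libraries for mt-Rnr2, at 3256 to 4280 against 2406 to 2565 FPKM, and below them for mt-Nd2.

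Between sham-operated females and males, none of the 15 rows passed, against 9.15% of all genes. At an unadjusted p under 0.05 stood 4 rows, against 26.6% of all genes. mt-Co1 had 29576, 31215 and 30693 FPKM in D21-s, against 24378, 26691 and 27900 in M, without overlap (log2 fold change 0.21, SE 0.072, limma adjusted p = 0.0974). mt-Rnr1, the RNA of the small mitochondrial ribosomal subunit, had 10097, 8757 and 7474 FPKM in D21-s, against 5547, 7605 and 6999 in M (log2 fold change 0.39, SE 0.13, limma adjusted p = 0.104). Its groups overlapped, since D21-s library 3 lay below M library 2. For mt-Rnr2 the log2 fold change was 0.42 (SE 0.15, limma adjusted p = 0.108), and for mt-Nd2, with 12215, 11017 and 11679 FPKM in D21-s, it was -0.19 (SE 0.079, limma adjusted p = 0.169).

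Scaling by median ratios brought mt-Co1 (0.33, adjusted p = 0.0213), mt-Rnr1 (0.50, adjusted p = 0.0298) and mt-Rnr2 (0.54, adjusted p = 0.0381) past the threshold between D21-s and M. Without D21-s library 3, mt-Rnr2 also passed (0.59, adjusted p = 0.0297), as it did with the score of other cell types as covariate (0.85, adjusted p = 0.0106), and without D21-s library 1 it stood at 0.28 (adjusted p = 0.226). Over all settings its adjusted p ran from 0.0106 to 0.277. Over the 13 mRNAs the log2 fold changes ran from -0.20 to 0.21 with a median of -0.03, and over all genes tested the median was -0.089. Libraries of 2 of the 15 rows, mt-Co1 and mt-Rnr2, did not overlap, against 30.3% of all genes.

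After ovariectomy, set against sham-operated females, none of the 15 rows passed and none was free of overlap. Of all genes 0.0076% were called and 12.9% were free of overlap. No row reached an unadjusted p under 0.05, against 6.29% of all genes. The smallest p values were those of mt-Rnr1, with 7596, 7867 and 7430 FPKM in D21-ovx (log2 fold change -0.19, SE 0.13, limma adjusted p = 0.949), and mt-Nd2 (log2 fold change -0.11, SE 0.079, limma adjusted p = 0.949). Among the mRNAs for which the search found no partner, mt-Nd1 averaged 12995 ± 935 FPKM in D21-ovx and 13801 ± 789 in D21-s, mt-Cytb 21019 ± 1261 in D21-ovx and 21560 ± 1372 in D21-s, and mt-Atp8 16433 ± 525 in D21-ovx and 16753 ± 840 in D21-s (SD, n = 3 each). The SE of the log2 fold change was 0.072 to 0.216 over the 15 rows.

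The deviations of same-numbered D21-ovx and D21-s libraries correlated in these data, so their values are also given by pair. The labels state no pairing. In all 3 pairs 6 of the 15 rows were lower in the D21-ovx library, against 15.6% of all genes tested, and these were mt-Rnr1, mt-Nd1, mt-Nd2, mt-Co1, mt-Nd4 and mt-Cytb. In all 3 pairs 2 rows, mt-Rnr2 and mt-Atp6, were higher, against 18.2% of all genes. These counts use the rows as deposited, and some change with the nuclear partner added. Summed mt-Atp6 was lower in D21-ovx in pair 1 (37363 against 40880 FPKM) and pair 2 (39859 against 41745), and higher in pair 3 (39831 against 39203). Summed mt-Co1 was higher in pair 1 (31683 against 31529) and lower in pairs 2 and 3. Summed mt-Nd4l was lower in all 3 pairs, and summed mt-Nd4 stayed so. The rows of a pair share the same 2 libraries and so are not independent of each other. With the replicate number as a block none of the 15 passed. That fit held all 9 libraries and so blocked the M libraries by number too, and no fit of these pairs alone was run. The mitochondrial share of the D21-ovx library minus that of the D21-s library was -1.14, -0.66 and -0.24 percentage points in pairs 1, 2 and 3, and with the nuclear partners added -1.32, -1.53 and -0.11 points.

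Summing each mitochondrial row with its nuclear partner lowered the SE of mt-Atp6, mt-Co3 and mt-Nd3 and moved their estimates. In the comparison of D21-ovx with D21-s, mt-Atp6 stood at 0.21 (SE 0.21) as deposited and at -0.06 (SE 0.063) when summed, and mt-Co3 at -0.15 (SE 0.22) as deposited and -0.01 (SE 0.061) when summed. Between D21-ovx and M, mt-Co3 stood at -0.24 (SE 0.22) as deposited and at 0.04 (SE 0.061) when summed. Between D21-s and M, mt-Nd3 stood at 0.01 (SE 0.17) as deposited and farther from 0, at -0.15 (SE 0.060, limma adjusted p = 0.147), when summed. The calls were unchanged in this fit, with mt-Rnr2 (adjusted p = 0.0318) and mt-Nd2 (adjusted p = 0.0323) passing between D21-ovx and M and no row in the other comparisons.

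**Figure D5:**
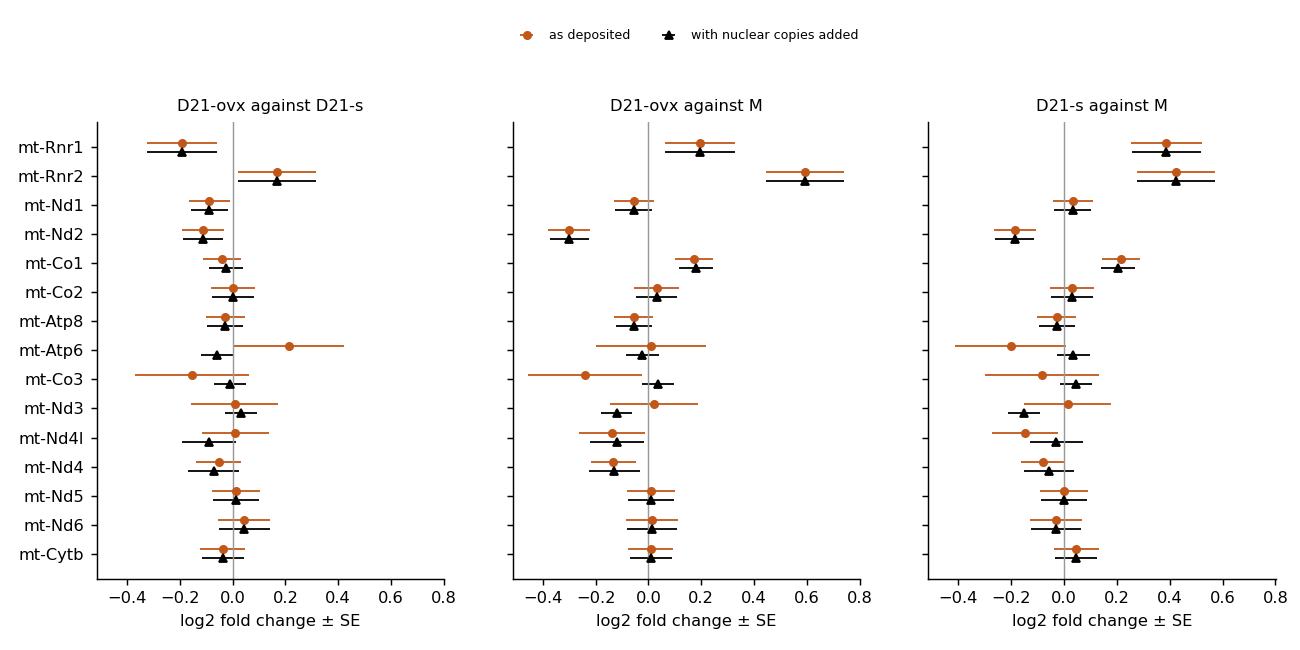
Log2 fold change (x axis, with SE) of the 15 mitochondrial rows in the 3 comparisons, as deposited (circles) and with each row summed with its nuclear partner (triangles). The error bars of mt-Atp6, mt-Co3 and mt-Nd3 shrink after summing, and mt-Rnr2 stands farthest from 0 between D21-ovx and M, at 0.59.

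The summed levels were also averaged by complex. The 3 complex IV subunits averaged 31553 ± 999 FPKM in D21-ovx, 31793 ± 1160 in D21-s and 29840 ± 1767 in M, and the 7 complex I subunits 9523 ± 155 in D21-ovx, 9875 ± 93 in D21-s and 10321 ± 884 in M (SD, n = 3 each). mt-Cytb, the sole member in complex III, averaged 21019 ± 1261 FPKM in D21-ovx, 21560 ± 1372 in D21-s and 20904 ± 1532 in M. The 2 ATP synthase subunits averaged 27725 ± 966 in D21-ovx, 28681 ± 1038 in D21-s and 28377 ± 1380 in M. These complex means were not tested.

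Ratios within the mitochondrial rows do not depend on the scale of a library. The summed rRNA over the summed mRNA was 0.0706, 0.0666 and 0.0601 in D21-ovx, 0.0816, 0.0681 and 0.0568 in D21-s and 0.0488, 0.0573 and 0.0497 in M. The D21-ovx libraries lay above the M libraries without overlap (log2 difference 0.34, exact permutation p = 0.1, the smallest possible, and 0.788 after adjustment over 9 ratio tests). The D21-s libraries overlapped the M libraries (log2 difference 0.39, exact permutation p = 0.2). A planned ratio of transfer RNA to mRNA could not be formed, since every transfer RNA was listed at 0.

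The only mRNA of the light strand is mt-Nd6, a subunit of complex I. Its level over the mean of the 12 other mRNAs was 0.509 ± 0.038 in D21-ovx, 0.482 ± 0.0081 in D21-s and 0.494 ± 0.031 in M (SD, n = 3 each), and no comparison fell below an exact permutation p of 0.4. The ratio of mt-Nd5, far from the heavy strand promoters, to mt-Nd1, near them, was 0.507 ± 0.041 in D21-ovx, 0.472 ± 0.028 in D21-s and 0.484 ± 0.040 in M, also with no exact permutation p below 0.4.

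After the values had been seen, further ratios were formed, and they are given without a test. The summed rRNA over the mRNA summed with partners averaged 0.048 in D21-ovx, 0.050 in D21-s and 0.038 in M. For mt-Atp8 over mt-Atp6 summed with its partner the means were 0.421 in D21-ovx, 0.412 in D21-s and 0.431 in M. mt-Nd6 over mt-Nd5, its neighbour on the opposite strand, was 1.09, 1.07 and 1.06 in D21-ovx, 1.06, 1.06 and 1.04 in D21-s and 1.06, 1.06 and 1.10 in M, a coefficient of variation of 1.80% over all 9 libraries. The strand setting used in counting is not given in the sources used here, and the 2 genes share 14 bases. mt-Rnr1 over mt-Rnr2 was 1.77, 2.08 and 2.28 in D21-ovx, 2.48, 2.56 and 2.80 in D21-s and 2.31, 2.96 and 2.81 in M, so the D21-ovx libraries lay below all others.

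Of 18 nuclear genes for mitochondrial transcription and DNA maintenance, 16 were tested and none passed in any comparison, beside 11.8% of all genes between D21-ovx and M, 9.15% between D21-s and M and 0.0076% between D21-ovx and D21-s. Between D21-ovx and M, Polrmt averaged 19.1 ± 1.13 FPKM in D21-ovx and 16.9 ± 1.23 in M (log2 fold change 0.17, SE 0.084, limma adjusted p = 0.223), and Tfam 34.5 ± 2.47 in D21-ovx and 33.6 ± 3.55 in M (log2 fold change 0.04, SE 0.095, limma adjusted p = 0.813). The median log2 fold change of the list was 0.05, against -0.088 for all genes. The corresponding values between D21-s and M were 0.13 for Polrmt (SE 0.084, limma adjusted p = 0.346) and -0.09 for Tfam (SE 0.095, limma adjusted p = 0.567).

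Among 33 genes of mitochondrial RNA processing, stability and decay, 2 passed between D21-ovx and M, beside 11.8% of all genes. Hsd17b10, a subunit of mitochondrial RNase P as well as a dehydrogenase, averaged 109 ± 2.68 FPKM in D21-ovx and 85.6 ± 11.2 in M (log2 fold change 0.36, SE 0.089, limma adjusted p = 0.0324). Trit1, which modifies transfer RNAs, averaged 4.43 ± 0.13 FPKM in D21-ovx and 6.44 ± 0.93 in M (log2 fold change -0.45, SE 0.11, limma adjusted p = 0.0365). Leaving out a D21-ovx library ended both calls, with adjusted p of 0.0772, 0.0800 and 0.10 for Hsd17b10 and 0.0914, 0.0894 and 0.0941 for Trit1 without library 1, 2 or 3, and Trit1 was lost without M library 1 (0.0659) or 3 (0.115) as well. With the score of other cell types as covariate, the adjusted p was 0.131 for Hsd17b10 and 0.124 for Trit1, and under quantile normalization it was 0.0545 for Hsd17b10 and 0.156 for Trit1. Under median-ratio scaling Trit1 stood at -0.35 (adjusted p = 0.102). None of the 33 passed in the other comparisons, in which Lrpprc, which stabilises mitochondrial mRNAs, stood at 0.08 between D21-s and M (SE 0.092, limma adjusted p = 0.614) and at -0.05 between D21-ovx and D21-s (SE 0.092, limma adjusted p = 0.996). Their median was 0.04 between D21-ovx and M and 0.06 between D21-s and M.

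Of 12 regulators of mitochondrial biogenesis, 1 passed against M in each female group, beside 11.8% of all genes for D21-ovx and 9.15% for D21-s. Ppara, a receptor that drives genes of fatty acid oxidation, averaged 30.3 ± 3.06 FPKM in D21-ovx and 30.1 ± 1.89 in D21-s, against 16.8 ± 2.54 in M. The log2 fold change against M was 0.82 in both female groups (SE 0.11, limma adjusted p = 0.00185 for D21-ovx and 0.00252 for D21-s). With the marker score as covariate it was 0.69 between D21-s and M (adjusted p = 0.0888). Ppargc1a, the coactivator PGC-1alpha, averaged 19.4 ± 2.89 FPKM in D21-ovx, 15.9 ± 2.34 in D21-s and 20.3 ± 2.13 in M and did not pass, with a log2 fold change of 0.28 between D21-ovx and D21-s (SE 0.14, limma adjusted p = 0.842).

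Among 12 nuclear markers of mitochondrial mass, 3 passed for D21-ovx and 1 for D21-s against M, beside the same shares of all genes. Cycs, which encodes cytochrome c, was lower in both female groups, with 202 ± 11.0 FPKM in D21-ovx and 194 ± 15.3 in D21-s, against 311 ± 20.9 in M. The log2 fold change was -0.62 for D21-ovx (SE 0.077, limma adjusted p = 0.000955) and -0.68 for D21-s (SE 0.077, limma adjusted p = 0.000746). Cycs has many processed pseudogenes, so reads may be shared with near-identical rows. Vdac1, the outer membrane pore, and Hspa9, a matrix chaperone, were higher in D21-ovx than in M, by log2 fold changes of 0.20 (SE 0.053, limma adjusted p = 0.0392) and 0.21 (SE 0.054, limma adjusted p = 0.0339). Vdac1 lost its call in each of the 9 fits that left out a library (adjusted p 0.0555 to 0.113), and Hspa9 in 6 of them (0.0523 to 0.116), those without 1 of the D21-ovx libraries, D21-s library 2 or M library 1 or 2. Under quantile normalization Vdac1 stood at 0.04 (adjusted p = 0.699) and Hspa9 at 0.06 (adjusted p = 0.481), and with the score of other cell types as covariate the adjusted p was 0.111 for Vdac1 and 0.299 for Hspa9.

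None of the 27 translation factors and tRNA synthetases of mitochondria passed in any comparison, beside 11.8% of all genes between D21-ovx and M and 9.15% between D21-s and M. Of 84 mitochondrial ribosomal protein genes, 82 were tested. In both female groups 2 were higher than in M and 1 was lower, beside the same shares of all genes, and the median was -0.01 for D21-ovx and 0.01 for D21-s. Mrpl23 stood at 0.49 for D21-ovx (SE 0.094, limma adjusted p = 0.0105) and 0.41 for D21-s (SE 0.094, limma adjusted p = 0.0284), and Mrpl50 at 0.28 for D21-ovx (SE 0.072, limma adjusted p = 0.0344) and 0.31 for D21-s (SE 0.072, limma adjusted p = 0.0279). Mrpl54, the member that was lower, stood at -0.46 for D21-ovx (SE 0.067, limma adjusted p = 0.00261) and -0.29 for D21-s (SE 0.067, limma adjusted p = 0.0301). All 3 encode proteins of the large subunit. Between D21-s and M, the call was lost in 5 of the 9 fits that left out a library for Mrpl23 (any D21-s library, M library 2 or 3, adjusted p 0.0584 to 0.0943), in 3 for Mrpl50 (D21-s library 2 or 3, M library 2, 0.0851 to 0.0970) and in 5 for Mrpl54 (D21-ovx library 3, any D21-s library, M library 3, 0.0502 to 0.108). Between D21-ovx and M it was lost in 6 for Mrpl50 (any D21-ovx library, D21-s library 2, M library 1 or 2, 0.0520 to 0.117). With the score of other cell types as covariate, Mrpl23 stood at 0.51 for D21-ovx (adjusted p = 0.0653) and 0.44 for D21-s (adjusted p = 0.214), and Mrpl50 stood at 0.16 for D21-ovx (adjusted p = 0.349) and 0.17 for D21-s (adjusted p = 0.491). Under median-ratio scaling Mrpl54 stood at -0.18 for D21-s (adjusted p = 0.168). For Mrpl54 in D21-s the adjusted p was 0.0545 under quantile normalization and 0.180 with the covariate. Between D21-ovx and D21-s none of the 82 passed.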

How the data were processed

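The RNA of prominin-1-positive kidney cortex cells was sequenced in 9 libraries. FPKM per gene and library, with 2 decimals, are the values the authors deposited, made with STAR 2.6.0c and RSEM per the submitters' processing notes; the RSEM version, genome build, annotation, strand setting and any scaling between libraries were not given in the sources used here. Its 4 unnamed side columns were not used. No read counts or depths are given, so no counting interval was computed. FPKM sums were 693451 to 734990.

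Of 52405 IDs, 52093 were found in GENCODE M21 (GRCm38), which supplied positions and transcripts, and the sequences shown. Nuclear partners were sought with blastn 2.17.0 among annotated transcripts (at least 95% identity over 200 bases), since no genome sequence was used. A summed level is FPKM times length added over both rows, divided by the mitochondrial gene's length. A partner's part of the reads of a pair is estimated from the same products. Both use full annotated lengths, and shortened lengths were not tried for them.

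Genes with FPKM of at least 1 in at least 3 libraries (13160) were fitted as log2(FPKM + 1) in limma (version 3.58.1, under R 4.3.3), all 3 groups in 1 model with a trended variance, and two-sided tests were adjusted over all genes. Fold changes on this scale understate changes of low genes. The fit was tested on simulated data, with noise independent between libraries and log2 changes larger than those of the called mitochondrial rows. That test does not show how the fit performs for changes as small as theirs. Shares and ratios were compared with exact two-sided permutation tests (scipy 1.17.1). P-values measure the spread between libraries that the labels call biological replicates.

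Named are all mRNA and rRNA members, up to 4 called genes of each nuclear list with the largest change, and otherwise Polrmt, Tfam, Lrpprc and Ppargc1a. The members and lists were chosen with earlier results of these data known. The deviations of same-numbered libraries correlated at 0.35, 0.17 and 0.29 between D21-ovx and D21-s. The numbers pair these groups by that check in the same data only, and the labels state no pairing. With M, not every same-numbered pair exceeded 0.1, while D21-s library 1 and M library 2, of unlike number, reached 0.28. Alternatives were another pseudocount, no filter, other scalings, other fits, a replicate block, a marker covariate, leaving out each library, and, added after seeing the data, summing partners, shortened lengths and scaling without mitochondrial rows and partners. Values by pair and the order of rows within libraries were added after the values were seen. Figures used matplotlib 3.10.9.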

Additional observations from a re-analysis of the deposited data

How the results depend on the processing

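With 3 libraries a group, calls near the threshold depend on single libraries and settings; reads of identical rows cannot be separated here, and the cause of each shift below was not tested. Between D21-ovx and M, 2 mitochondrial rows were called, and 0 without the filter or under quantile normalization. Under median-ratio scaling 2 were called (mt-Rnr2 and mt-Co1, with mt-Nd2 lost). With the 2 groups alone, without a variance trend or with the marker covariate 1 was called. When 1 library was left out 0 to 1 were called, so no such fit kept both calls. Between D21-s and M the 0 calls became 3 under median-ratio scaling and 1 with the covariate, and 0 to 1 when 1 library was left out. Between D21-ovx and D21-s no setting called a mitochondrial row. The replicate block entered the fit of all libraries. With it 1 mitochondrial row (mt-Rnr2) passed between D21-ovx and M, mt-Nd2 missing at limma adjusted p = 0.0583. The numbers do not pair the libraries of that comparison. Between D21-ovx and D21-s, paired by the correlation of deviations only, the block left 0 of all genes called, against 1 without it. Each group holds the same replicate numbers, so a block cannot change a difference between group means. It could therefore move no share and no fold change.

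Over all genes, 1204 were called between D21-s and M (563 higher, 641 lower), 739 without the filter, 722 with the 2 groups alone and 364 with the covariate, and 570 to 1635 when 1 library was left out. Between D21-ovx and M 1555 were called (741 higher, 814 lower), 710 with the covariate and 877 to 1698 when 1 library was left out. Median-ratio scaling turned the splits to 912 higher and 449 lower for D21-s, and 1097 higher and 463 lower for D21-ovx, and quantile normalization to 695 and 471, and 767 and 536. Between D21-ovx and D21-s 1 gene was called, 0 under quantile normalization or the same sum over rows that are not mitochondrial, 2 without the filter, with the same sum over all rows or over rows that are neither mitochondrial nor partners, 3 without a variance trend, 4 with the covariate, 8 under median-ratio scaling, 9 with the 2 groups alone, and 0 to 11 when 1 library was left out.

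Of 945 alternative fold changes of mitochondrial rows, 916 stayed on their side of the threshold, 23 lost a call and 6 gained one; 96 uncalled values changed sign. Of 294 for the nuclear genes named, 82 lost the call and none changed sign. The differences in share and in the tested ratios moved by less than the SD between libraries under every alternative run, although share differences with M near 0 changed sign without single libraries.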
